A study of Mus musculus with 17 samples.

Results

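The repressive histone mark H3K27me3 was compared between CD8 thymocytes that lack the transcription factors Tcf1 and Lef1 and wild-type CD8 thymocytes, with 1 library on each side. The members are the enriched intervals, called islands, of these libraries: 23933 islands in Tcf1/Lef1-deficient CD8 cells (DKO CD8) and 34756 in wild-type CD8 cells (WT CD8), of 346699 islands in the 12 histone libraries of the series. Islands that shared at least 1 bp were merged, which gave 46546 regions. DKO CD8 cells carried the genotype Tcf1-/-Lef1-/-, with both genes deleted by CD4-Cre, a transgene expressed from the CD4 promoter elements that acts while T cells develop in the thymus. WT CD8 cells were wild type. Both were mature thymocytes sorted as TCRβ-high, CD69-negative, CD24-negative and CD8-positive. The labels give no strain, age or number of animals. Other libraries of the same cells (H3K27ac, H3K4me3 and H3K9ac), the corresponding WT CD4 thymocyte libraries and a list of 7807 Tcf1 peaks from splenic WT CD8 cells were used for comparison. The phenotype field of the WT CD4 samples reads CD8-positive, whereas title and source name read CD4, and the titles were followed.

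H3K27me3 is written by the Polycomb repressive complex PRC2, whose catalytic subunit is Ezh2, and is bound by the complex PRC1, which compacts chromatin. It typically covers broad domains over silenced developmental regulators and is excluded from active promoters and enhancers. The same lysine can instead be acetylated, so 1 histone tail cannot carry H3K27me3 and H3K27ac together, although neighbouring nucleosomes, the other allele or other cells of the sample can. Tcf1 and Lef1 are HMG-box DNA-binding proteins of T cells that sustain T cell identity and the CD8 programme. With 1 library a side, no difference below has a replicate check and none was tested. Intervals are exact 95% intervals that cover counting error only. Regions are given by position in the mm9 build. Genes at these positions, among them the deleted ones, were not analysed here.

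Island reads totalled 3070897 in DKO CD8 and 2569785 in WT CD8, over 96.1 Mb in DKO CD8 and 121 Mb in WT CD8. Islands at least 10 kb wide held 29.1% of the covered length in DKO CD8 and 9.75% in WT CD8, and 361 islands in DKO CD8 and 69 in WT CD8 reached 20 kb. In WT CD4, 29.0% of the covered length lay in islands of at least 10 kb. Median island width was 2.6 kb in DKO CD8 and 2.8 kb in WT CD8, so the difference lay in the widest islands. Read density over all islands was 32.0 reads per kb in DKO CD8 and 21.2 in WT CD8. The strongest island held 0.989% of the island reads in DKO CD8 and 4.35% in WT CD8. Depth is known only as reads within islands.

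The reads of DKO CD8 lay mostly in regions called in both cell populations, and those of WT CD8 mostly did not. The 9092 shared regions, 19.5% of all (19.2 to 19.9), held 76.0% of the island reads of DKO CD8 and 37.6% of those of WT CD8. Without the strongest WT CD8 island the WT CD8 share was 39.3%. The 14150 regions of DKO CD8 alone covered 34.4 Mb with a median of 40 reads, and the 23304 regions of WT CD8 alone covered 71.2 Mb with a median of 46 reads. Shared regions were wider, with a median of 6.0 kb, against 2.0 kb for DKO CD8 alone and 2.4 kb for WT CD8 alone. Of the regions that reached 20 kb, 459 were shared, 3 were of DKO CD8 alone and 10 of WT CD8 alone, and each of the 37 regions of at least 50 kb was shared.

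Strong DKO CD8 regions nearly always had an island in WT CD8, while the converse did not hold. Of DKO CD8 regions with 200 to 499 reads, 94.3% (93.3 to 95.1) had a WT CD8 island, and of those with at least 500 reads 99.1% (98.4 to 99.6). Of WT CD8 regions with 200 to 499 reads, 58.0% (55.3 to 60.7) had a DKO CD8 island, and with at least 500 reads 87.7% (81.2 to 92.5). At 100 to 199 reads the shares were 68.1% for DKO CD8 regions and 38.7% for WT CD8 regions. Below 30 reads both were low, at 11.8% for DKO CD8 and 13.9% for WT CD8. The WT CD4 H3K27me3 library, which took no part in the merging, gave the same contrast. It had an island at 94.6% of DKO CD8 regions with 100 to 199 reads and at 38.8% of WT CD8 regions with 100 to 199 reads.

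**Figure D1:**
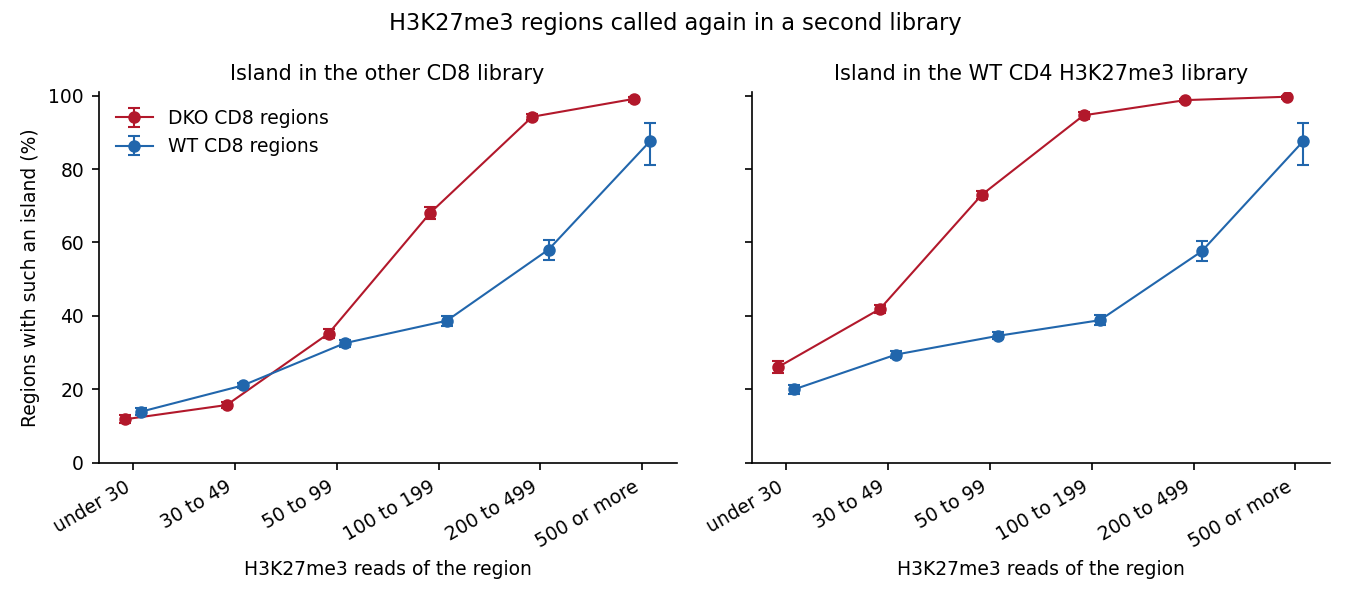
Share of H3K27me3 regions (y axis, percent) with an island in the other CD8 library (left) or in WT CD4 (right), by the reads of the region (x axis), for DKO CD8 regions (red) and WT CD8 regions (blue); bars are exact 95% intervals. Between 100 and 499 reads the red points lie above the blue ones in both panels, at 68.1% and 94.3% against 38.7% and 58.0% on the left.

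Islands covered broad H3K27me3 domains more completely in DKO CD8. Over the 2041 shared regions of at least 10 kb, islands covered 92.1% of the merged length in DKO CD8 and 70.1% in WT CD8, with 42.0 reads per kb of island in DKO CD8 and 19.8 in WT CD8. DKO CD8 covered the larger part in 82.1% of them. Over the 37 regions above 50 kb, islands covered 97.2% of the length in DKO CD8 and 80.5% in WT CD8. The same domains were called in more pieces in WT CD8. Regions above 50 kb averaged 1.73 islands in DKO CD8 and 6.65 in WT CD8. A single region held up to 5 DKO CD8 islands or up to 20 WT CD8 islands. Over all 9092 shared regions, DKO CD8 covered more in 62.9% and WT CD8 covered more in 32.7%. Intervals set by WT CD4 islands, an alternative chosen after seeing the data, gave the same order. Neither compared library set these intervals, but the islands counted in them were those of the compared libraries. DKO CD8 islands covered 84.6% and WT CD8 islands 65.2% of the length of WT CD4 islands of 20.2 to 50 kb, and nearly all of these were called in each (99.6% in DKO CD8 and 99.4% in WT CD8). At WT CD4 islands of up to 2 kb the shares called were 22.8% in DKO CD8 and 14.8% in WT CD8. Islands are called from reads, so covered share and number of pieces can follow read density, also at WT CD4 islands. The part of depth and read density in these values was not tested.

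The widest shared region lay on chromosome 15, 102738401 to 102906200, spanned 167.8 kb, and held 8405 reads over 166.8 kb of islands in DKO CD8 and 2593 reads over 135.6 kb in WT CD8. WT CD4 had 8720 reads there, counted as all reads of the islands that overlap the region. Active-mark islands were small beside this, with 63 H3K27ac reads in DKO CD8 and 66 in WT CD8. On chromosome 11, 96087201 to 96187400, there were 5304 reads in DKO CD8 and 1541 in WT CD8, and DKO CD8 islands covered all 100.2 kb where those of WT CD8 covered 76.0 kb. Chromosome 3 held a pair of such domains. The one at 87747401 to 87843600 had 4141 reads in DKO CD8 and 1512 in WT CD8, and that at 96121201 to 96216200 had 5537 reads in DKO CD8 and 1939 in WT CD8. These 4 domains had 44.0 to 58.3 reads per kb in DKO CD8 and 19.1 to 22.6 in WT CD8. These densities were not scaled for depth, and over all shared regions the medians were 30.6 in DKO CD8 and 17.3 in WT CD8. The fifth, on chromosome 8 at 126059201 to 126185000, stood apart from the others, with 30376 reads in DKO CD8 and 14290 in WT CD8 and islands in 10 of the 12 histone libraries.

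At shared regions the reads were compared as a log2 ratio of DKO CD8 over WT CD8, centred on the median over shared regions. That median was 2.24-fold in favour of DKO CD8, and the total of island reads was 1.195-fold in favour of DKO CD8. On the median scale, 698 of the 9092 regions (7.68%) lay 2-fold or more above the median in DKO CD8, and 1885 (20.7%) lay 2-fold or more below it. Centring on total island reads instead shifts every ratio by 0.91 on the log2 scale, so "higher" and "lower" are relative to the shared regions. The higher regions had medians of 277 reads in DKO CD8 and 47 in WT CD8 and were 8.4 kb wide. The lower regions had medians of 42 reads in DKO CD8 and 63 in WT CD8 and were 4.0 kb wide. The regions just inside and just outside the thresholds had log2 ratios of 1.003 and 0.9992 at the upper one and of -1.0 and -0.9992 at the lower one.

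The ratio followed the width of the region. Its median was -1.04 for shared regions up to 2 kb, -0.64 for 2.2 to 4 kb, -0.10 for 4.2 to 6 kb, 0.26 for 6.2 to 10 kb, 0.41 for 10.2 to 20 kb, 0.44 for 20.2 to 50 kb and 0.49 above 50 kb. The share of regions at least 2-fold lower was 53.1% up to 2 kb, 20.6% at 4.2 to 6 kb, 5.75% at 10.2 to 20 kb, 1.96% at 20.2 to 50 kb and 2.70% above 50 kb. In the widest bin, of 37 regions, 0 passed 2-fold upward and 1 downward. On total island reads, the shift of 0.91 turns the medians between 2.2 and 6 kb positive. Median read density up to 2 kb was 37.0 reads per kb in DKO CD8 and 31.25 in WT CD8. Above 50 kb it was 48.7 in DKO CD8 and 19.1 in WT CD8, so the libraries were closest in the narrowest shared regions. Every island holds at least 15 reads, and a shared region needs an island in each library. Shared regions up to 2 kb had medians of 37 reads in DKO CD8 and 33 in WT CD8. The part of that floor in the width trend was not tested. Between 2.2 and 50 kb each bin had 25.8 to 41.7 reads per kb in DKO CD8 and 16.2 to 18.2 in WT CD8. Since the total number of reads is unknown, a lower share of WT CD8 reads in domains and a lower level of the mark cannot be told apart.

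**Figure D2:**
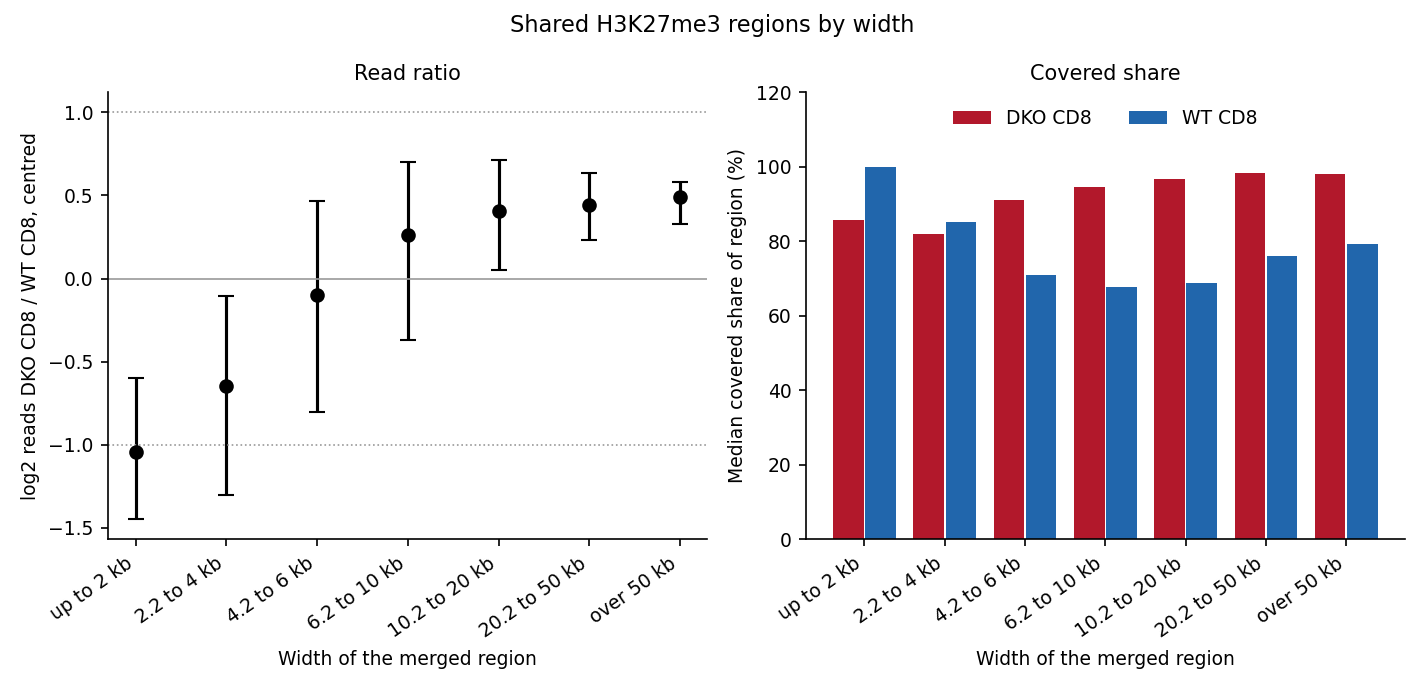
Left, centred log2 ratio of H3K27me3 reads in DKO CD8 over WT CD8 (points are medians, bars the quartiles) by width of the shared region, with dotted lines at 2-fold. Right, median share of the region covered by islands in DKO CD8 (red) and WT CD8 (blue), from 0; medians of the ratio run between -1.04 for the narrowest and 0.49 for the widest regions, and DKO CD8 covers more than WT CD8 in each bin above 4 kb.

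Much of the count beyond 2-fold came from regions that islands of 1 library covered only in part. WT CD8 islands covered a median of 34.3% of the regions that were higher in DKO CD8, and DKO CD8 islands covered 48.8% of those that were lower. Reads outside islands are not known, so such ratios can be overstated. Among the 6413 regions that islands of each library covered over at least 50% of the width, 105 (1.64%) passed 2-fold upward in DKO CD8 and 921 (14.4%) downward. The scale moved the split as well: divided by total island reads, 4190 were higher and 568 lower in DKO CD8.

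**Figure D3:**
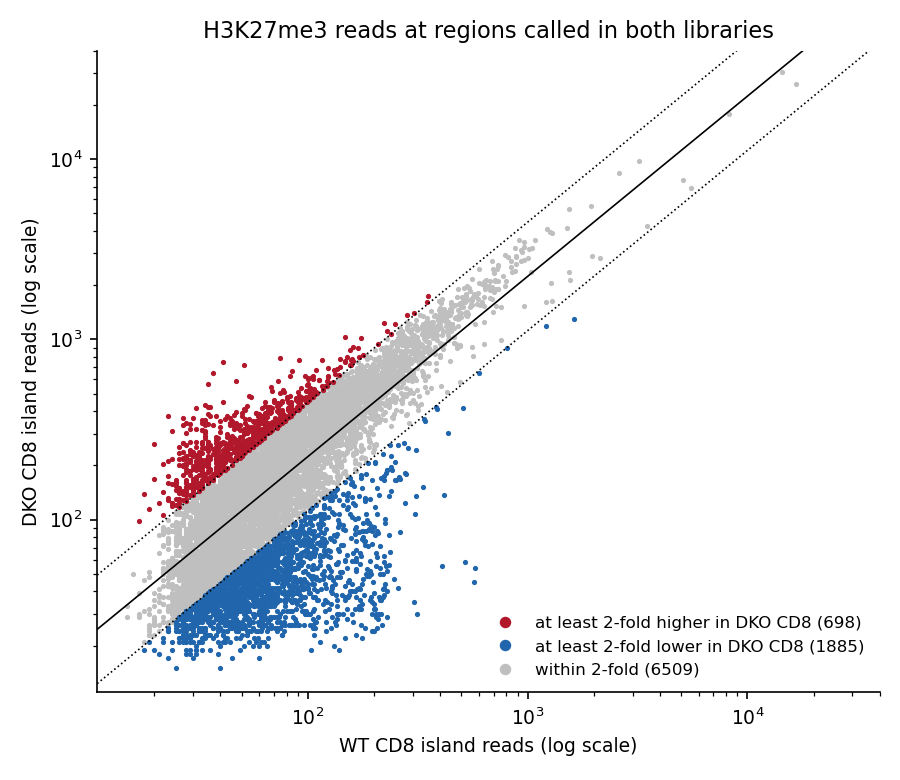
H3K27me3 island reads in DKO CD8 (y axis) against WT CD8 (x axis) at the 9092 shared regions, on log axes; the solid line is the median ratio and dotted lines are 2-fold from it. There are 698 regions higher in DKO CD8 (red), 1885 lower (blue) and 6509 within 2-fold (grey).

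The 5 shared regions with the highest ratios, among those covered over at least 50% by each library and with at least 100 reads in the higher one, all had a WT CD4 H3K27me3 island. Such islands were common at shared regions, at 94.1% of those within 2-fold and 85.4% of all. On chromosome 4, 133152801 to 133159600, DKO CD8 had 346 reads (310 to 384) and WT CD8 had 52 (38.8 to 68.2), a centred log2 ratio of 1.57 (1.15 to 2.02). On chromosome 12, 46172801 to 46177600, DKO CD8 had 220 reads and WT CD8 35, with a ratio of 1.49 (0.97 to 2.05). The region on chromosome 13, 55568801 to 55579600, was the largest of the set, with 604 reads in DKO CD8, 100 in WT CD8 and a ratio of 1.43 (1.12 to 1.75). It held 1 Tcf1 peak and H3K27ac islands in DKO CD8 (56 reads) and WT CD8 (15 reads). On chromosome 6, 29472601 to 29481600, there were 483 reads in DKO CD8 and 83 in WT CD8. On chromosome 5, 118473601 to 118479600, there were 288 reads in DKO CD8 and 50 in WT CD8, with islands in 11 of the 12 histone libraries. WT CD4 held 125 to 1218 reads at these 5 regions.

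The 5 regions with the lowest ratios had no H3K27me3 island in WT CD4. Of all shared regions at least 2-fold lower in DKO CD8, 50.2% had one. On chromosome 6, 121600201 to 121605000, DKO CD8 had 56 reads (42.3 to 72.7) and WT CD8 had 233 (204 to 265), a centred log2 ratio of -3.22 (-3.67 to -2.79). On chromosome 9, 73253201 to 73260200, DKO CD8 had 71 reads and WT CD8 188, with a ratio of -2.57 (-2.98 to -2.17). The others were chromosome 4, 16604801 to 16607800, with 25 reads in DKO CD8 and 68 in WT CD8, chromosome 5, 96148201 to 96151000, with 34 in DKO CD8 and 89 in WT CD8, and chromosome 6, 24877201 to 24882200, with 60 in DKO CD8 and 148 in WT CD8. Of these 5 regions, 4 also had a WT CD8 H3K27ac island, of 39 to 159 reads, and 0 had one in DKO CD8. Over all shared regions at least 2-fold lower, 53.85% had a WT CD8 H3K27ac island and 11.62% a DKO CD8 one. The first, without WT CD8 H3K27ac, had H3K9ac islands in DKO CD8 (74 reads) and WT CD4 (110 reads). WT CD8 islands spanned each of the 5 in full, and DKO CD8 islands covered 1.4 to 4.0 kb of the 2.8 to 7.0 kb. On total island reads the 5 ratios were -2.31 to -1.56.

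**Figure D4:**
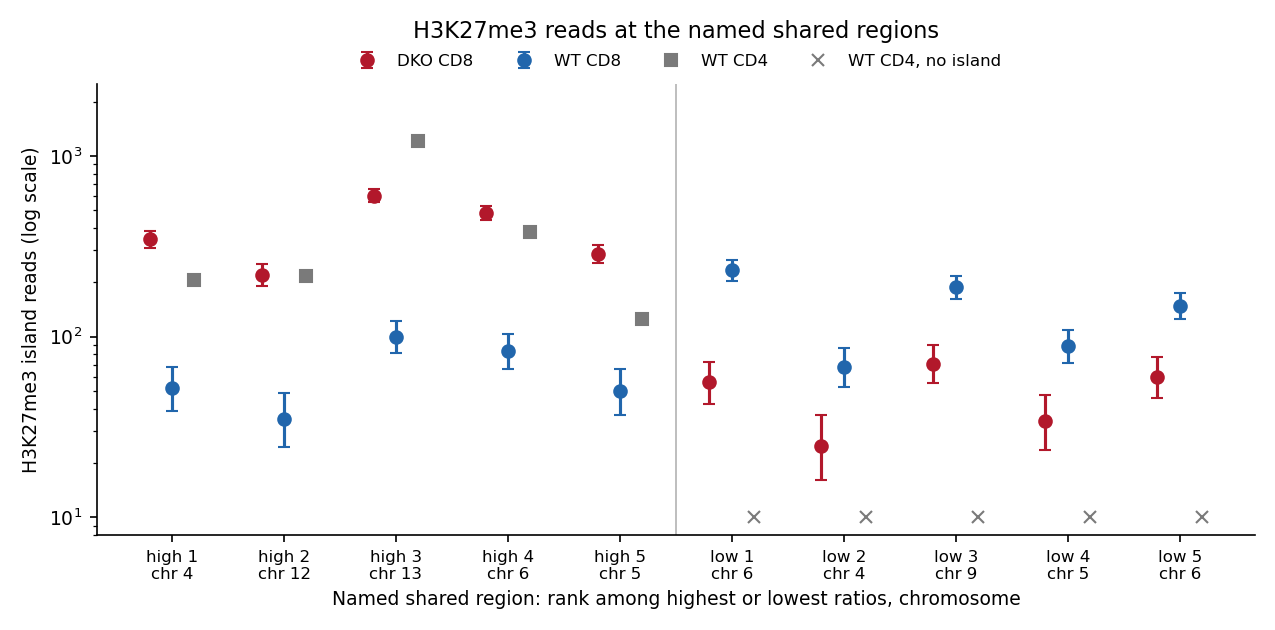
H3K27me3 island reads (y axis, log scale) at the 5 shared regions with the highest and the 5 with the lowest centred ratio, in DKO CD8 (red) and WT CD8 (blue) with exact Poisson 95% intervals, and in WT CD4 (grey; a cross marks no island and has no value). The regions were chosen for their ratios, so the distance between DKO CD8 and WT CD8 is a description, and WT CD4 has an island at the 5 on the left and at 0 of the 5 on the right. Over all shared regions, 85.4% had a WT CD4 island, and of those at least 2-fold lower 50.2% did.

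H3K27me3 regions of WT CD8 alone coincided with H3K27ac and H3K4me3 islands of the same cells more often than those of DKO CD8 alone did, and the H3K9ac shares were close to each other. Of the regions of DKO CD8 alone, 12.6% (12.1 to 13.2) overlapped a DKO CD8 H3K27ac island and 9.17% a DKO CD8 H3K4me3 island. Of those of WT CD8 alone, 60.4% (59.8 to 61.0) overlapped a WT CD8 H3K27ac island and 29.1% a WT CD8 H3K4me3 island. For H3K9ac the shares were 4.12% in DKO CD8 and 4.12% in WT CD8. The lists differed in size, with 29636 H3K27ac islands in DKO CD8 and 56985 in WT CD8. H3K4me3 islands numbered 23411 in DKO CD8 and 42013 in WT CD8. Over all 46546 regions, H3K27ac islands lay at 9.43% for DKO CD8 and 40.55% for WT CD8. For H3K4me3 these shares were 9.74% for DKO CD8 and 22.98% for WT CD8, and for H3K9ac 2.55% and 5.15%. The shares were higher among strong regions. At the 1090 regions of DKO CD8 alone with at least 100 reads, 29.9% (27.2 to 32.7) had a DKO CD8 H3K27ac island, 16.1% a DKO CD8 H3K4me3 island and 6.70% a DKO CD8 H3K9ac island. At the 3523 regions of WT CD8 alone with at least 100 reads, 96.3% (95.7 to 96.9) had a WT CD8 H3K27ac island, 72.9% (71.4 to 74.3) a WT CD8 H3K4me3 island and 9.96% a WT CD8 H3K9ac island, with 2 of the 3 active marks at 2264 of them and all 3 at 306. The same WT CD8 regions had an H3K27ac island in 3.75% in DKO CD8 and in 5.59% in WT CD4, and an H3K27me3 island of WT CD4 in 7.47%. DKO CD8 H3K4me3 had islands at 21.4% of them and WT CD4 H3K9ac at 13.3%.

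Reads of the marks were compared at these regions. Where a region of DKO CD8 alone with at least 100 reads had a DKO CD8 H3K27ac island, the medians were 140 H3K27me3 reads and 41 H3K27ac reads. Where such a region of WT CD8 alone had a WT CD8 H3K27ac island, they were 152 H3K27me3 reads and 129 H3K27ac reads. For H3K9ac the medians were 136 H3K27me3 reads and 46 H3K9ac reads in DKO CD8, and 161 H3K27me3 reads and 25 H3K9ac reads in WT CD8. For H3K4me3 they were 145 H3K27me3 reads and 27 H3K4me3 reads in DKO CD8, and 161 H3K27me3 reads and 57 H3K4me3 reads in WT CD8. These reads were not scaled between marks, so closeness in reads is not a result. In WT CD8, island reads totalled 2569785 for H3K27me3 and 248234 for H3K9ac. Over all islands, H3K27ac of the same cells covered 6.10% of the H3K27me3 length in DKO CD8, 29.4% in WT CD8 and 4.47% in WT CD4. Input libraries were not analysed here, and the part of a background common to WT CD8 libraries in these regions was not tested.

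The order of the classes turned where these places were left out. Among regions without an island of H3K27ac, H3K4me3 or H3K9ac of WT CD8, a split chosen after seeing the data, 11352 were of DKO CD8 alone, 8117 of WT CD8 alone and 4589 shared. With at least 100 reads there were 671 of DKO CD8 alone and 87 of WT CD8 alone. Among regions with such an island, 2798 were of DKO CD8 alone and 15187 of WT CD8 alone, and with at least 100 reads 419 of DKO CD8 alone and 3436 of WT CD8 alone. Split instead by the active marks of DKO CD8, regions without a DKO CD8 island numbered 11610 of DKO CD8 alone and 20763 of WT CD8 alone, and those with one numbered 2540 of DKO CD8 alone and 2541 of WT CD8 alone.

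**Figure D5:**
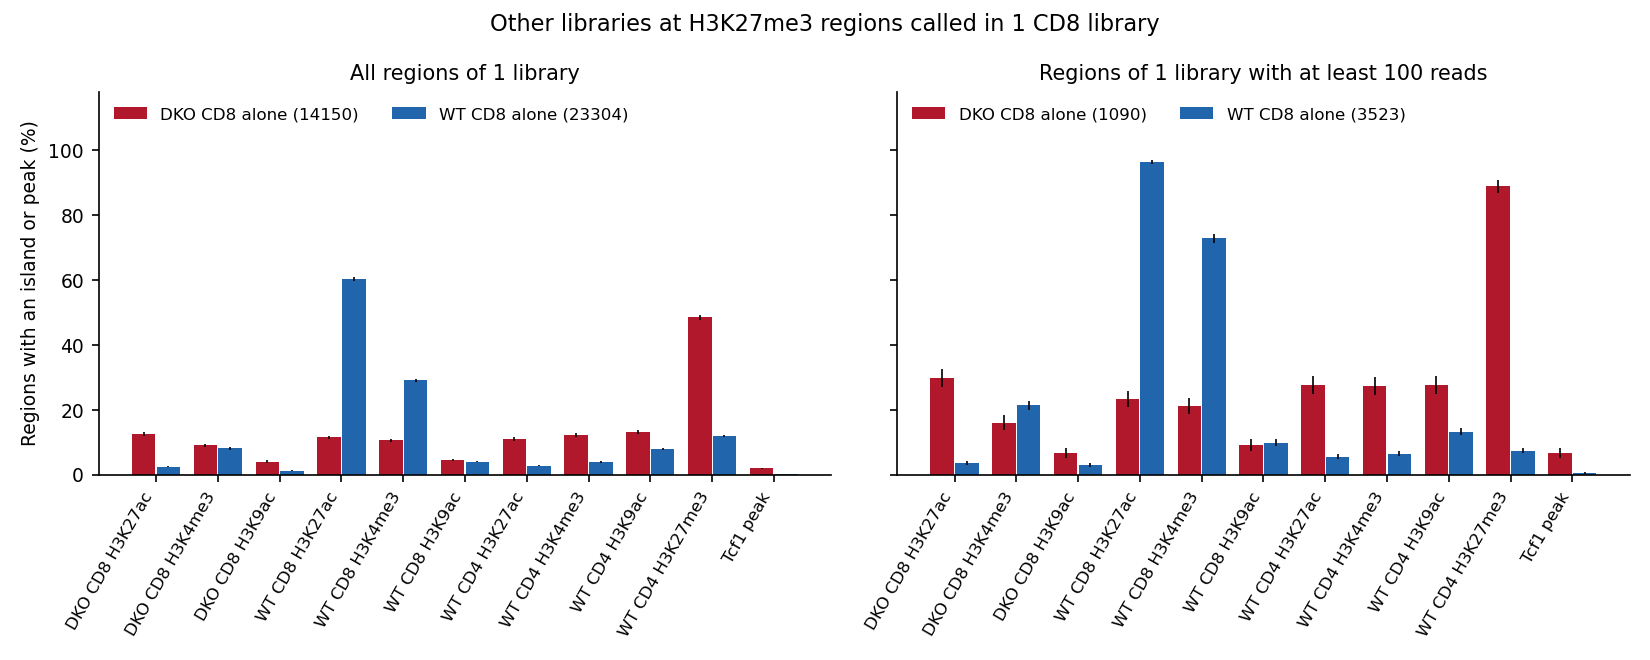
Share of H3K27me3 regions called in DKO CD8 alone (red) or WT CD8 alone (blue) that overlap an island of each other library or a Tcf1 peak (y axis from 0, percent; bars are exact 95% intervals), for all such regions (left) and those with at least 100 reads (right). On the right, WT CD8 H3K27ac islands lie at 23.3% of red and 96.3% of blue regions, and WT CD4 H3K27me3 islands at 89.0% of red and 7.47% of blue regions.

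WT CD4 H3K27me3 islands lay at 48.5% (47.7 to 49.4) of the regions of DKO CD8 alone and at 11.95% (11.5 to 12.4) of those of WT CD8 alone. At 85.4% of shared regions there was one as well, and at 37.4% of all 46546 regions. Regions of DKO CD8 alone with a WT CD4 island had a median of 50 reads in DKO CD8, and the 7282 without one had 35. Of the shared regions at least 2-fold higher in DKO CD8, 693 of 698 had a WT CD4 island, and of those at least 2-fold lower, 946 of 1885. By length, WT CD4 islands covered 70.4% of the H3K27me3 sequence of DKO CD8 and 37.8% of that of WT CD8. DKO CD8 islands and WT CD8 islands had 40.4 Mb in common, which was 42.1% of the DKO CD8 length and 33.4% of the WT CD8 length.

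Acetylation of the same lysine was lower in DKO CD8 at H3K27ac regions that lay in WT CD8 H3K27me3 regions. Its ratio was centred in the same way over the 11068 H3K27ac regions called in both CD8 libraries, of which 8.08% passed 2-fold upward and 15.2% downward in DKO CD8. The 772 that overlapped an H3K27me3 region of DKO CD8 alone had a median log2 ratio of 0.07, with 67 at least 2-fold higher and 124 (16.1%) at least 2-fold lower. The 344 that overlapped an H3K27me3 region of WT CD8 alone had a median log2 ratio of -1.63, and 227 of them (66.0%) were at least 2-fold lower. At the 686 H3K27ac regions in shared H3K27me3 regions the median was -0.70, and 39.5% were at least 2-fold lower. The median was -0.28 where H3K27me3 was at least 2-fold higher in DKO CD8 (102 regions). It was -0.625 where H3K27me3 was within 2-fold (462 regions) and -2.11 where H3K27me3 was at least 2-fold lower (122 regions). H3K27ac regions outside H3K27me3 regions had a median of 0.06 (9289 regions). Each mark has its own libraries, and the WT CD8 libraries of both marks hold the coinciding islands described above, whose part in these medians was not tested.

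For H3K4me3, the mark of active promoters, the pattern was smaller. The 581 shared H3K4me3 regions in H3K27me3 regions of DKO CD8 alone had a median of 0.10, with 7.75% at least 2-fold higher beside 5.73% over all. The 761 in those of WT CD8 alone had a median of -0.36, with 25.6% at least 2-fold lower in DKO CD8, beside 7.4% over all 7608 H3K4me3 regions. For H3K9ac, the acetylation of another lysine at active chromatin, 288 regions lay in H3K27me3 regions of DKO CD8 alone, with a median of 0.17 and 13 at least 2-fold higher (4.51%, beside 3.95% over all 2810). There were 29 in those of WT CD8 alone, with a median of -0.16 and 3 at least 2-fold lower (3.56% over all).

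Regions with H3K27me3 in one cell population and H3K27ac in the other were a minority. Of the 14150 H3K27me3 regions of DKO CD8 alone, 926 (6.54%) had an H3K27ac island in WT CD8 and none in DKO CD8, and 1073 (7.58%) had the reverse. At 11438 (80.8%) neither had one. Of the 23304 regions of WT CD8 alone, 274 (1.18%) had an H3K27ac island in DKO CD8 and none in WT CD8, and 13746 (59.0%) had the reverse. Over all 46546 regions, H3K27ac islands lay at 9.43% for DKO CD8 and 40.55% for WT CD8. H3K27ac and H3K27me3 islands of a region need not touch the same nucleosomes, since overlap was counted over the whole region.

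Tcf1 peaks of splenic CD8 cells lay in H3K27me3 islands more often in DKO CD8 than in WT CD8. DKO CD8 islands held 602 of the 7807 peaks (7.71%, 7.13 to 8.32) and WT CD8 islands 261 (3.34%, 2.96 to 3.77). Of these peaks, 435 lay in DKO CD8 islands only, 94 in WT CD8 islands only and 167 in both. WT CD4 H3K27me3 islands held 447 peaks (5.73%, 5.22 to 6.26), among them 158 of the 435. Of the 435, 318 (73.1%) lay in a DKO CD8 H3K27ac island as well, close to the 74.8% of all peaks. Of the 167 in both, 78 (46.7%) did. The authors' peak score had a median of 75.4 for the 435, 71.0 for the 94, 69.2 for the 167 and 76.4 for all peaks. The peaks come from splenic cells and the marks from thymocytes.

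At shared regions with a Tcf1 peak the H3K27me3 ratio had a higher median, and the gap was largest in narrow regions. The 304 with a peak had a median log2 ratio of 0.37 and the 8788 without one -0.02, and 46 with a peak (15.1%) exceeded 2-fold upward and 24 (7.90%) downward in DKO CD8. Without a peak these shares were 7.42% upward and 21.2% downward, and over all shared regions 7.68% and 20.7%. Regions with a peak were wider, at a median of 9.7 kb against 5.8 kb, and the ratio followed width. Within 2.2 to 4 kb the medians were -0.24 with a peak (27 regions) and -0.65 without. Within 6.2 to 10 kb they were 0.48 with a peak (78 regions) and 0.25 without. Within 20.2 to 50 kb they were 0.45 with a peak (49 regions) and 0.44 without.

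Regions of DKO CD8 alone that held a Tcf1 peak numbered 283, with a median of 51 reads over 2.4 kb. These were 2% of the regions of DKO CD8 alone. Peaks lay in 3.344% of shared regions and in 0.2789% of those of WT CD8 alone. Of all 7807 peaks, 74.75% lay in a DKO CD8 H3K27ac island and 55.83% in a WT CD8 one. Of the 283 regions, 241 had a DKO CD8 H3K27ac island and 200 a WT CD8 one. The strongest was on chromosome 7, 88350001 to 88366400, with 411 H3K27me3 reads in DKO CD8 (372 to 453), 302 in WT CD4, and H3K27ac islands of 108 reads in DKO CD8 and 21 in WT CD8. On chromosome 15, 101089601 to 101103600, there were 375 H3K27me3 reads in DKO CD8 and no island in WT CD4, beside 675 H3K27ac reads in DKO CD8, 147 in WT CD8 and 1212 in WT CD4. On chromosome 9, 20962601 to 20973000, DKO CD8 had 361 H3K27me3 reads and 300 H3K27ac reads, and WT CD8 had no island of either mark. The other two were chromosome 4, 149146401 to 149160000 (343 H3K27me3 reads in DKO CD8), and chromosome 5, 135495001 to 135506200 (336 reads). H3K27ac reads as counted were higher in DKO CD8 than in WT CD8 at the 4 with islands in both, by 37 against 32 on chromosome 4. These reads were not scaled. H3K27ac density over all islands was also higher in DKO CD8, at 33.14 reads per kb against 24.65 in WT CD8.

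Leaving out places with islands in at least 10 of the 12 histone libraries or a read density over 10 times the library's median, the regions of DKO CD8 alone with the most reads included 3 near the start of their chromosome. On chromosome 17, 3004601 to 3034200, there were 1733 reads (1652 to 1817), on chromosome 4, 3006201 to 3018600, 1608 reads, and on chromosome 16, 3231401 to 3243000, 996 reads. WT CD4 had H3K4me3 and H3K9ac islands at each of these 3 and H3K27me3 islands at those on chromosome 4 (944 reads) and chromosome 16 (727 reads), and none of them had an active-mark island in DKO CD8 or WT CD8. The next were chromosome 4, 145710801 to 145726000 (675 reads), and chromosome 17, 13630201 to 13650600 (608 reads), with WT CD4 H3K27me3 islands of 677 and 595 reads.

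Each of the 5 strongest regions of WT CD8 alone also had a WT CD8 H3K27ac island. The first, on chromosome 7, 67002201 to 67050400, had 4348 reads of H3K27me3 (4220 to 4479), 3054 of H3K27ac, 3097 of H3K4me3 and 2420 of H3K9ac in WT CD8, while DKO CD8 had only an H3K4me3 island of the 4 marks, with 3213 reads. A pair on chromosome 6 followed, at 47687001 to 47728200 (3333 H3K27me3 reads) and 47601601 to 47637000 (3029 reads). These held 7 and 6 Tcf1 peaks, without an H3K27me3 island in DKO CD8 or WT CD4. H3K27ac reads there were 2747 and 2702 in DKO CD8, 3290 and 3140 in WT CD8 and 4009 and 3546 in WT CD4. WT CD4 H3K9ac had 2828 and 2548 reads at the pair, and WT CD8 H3K4me3 had 2235 at the second. Chromosome 8, 19914601 to 19933000, had 1608 H3K27me3 reads and 1347 H3K27ac reads in WT CD8, and chromosome 1, 87458601 to 87502000, had 1123 H3K27me3 reads and 330 H3K27ac reads in WT CD8. The chromosome 8 place also had 1118 H3K4me3 reads in WT CD8, 1195 in DKO CD8 and 1198 H3K9ac reads in WT CD4. WT CD4 H3K9ac had 3026 reads at the chromosome 7 place. On chromosomes 7, 6 and 8, libraries of different marks thus held reads of the same order wherever they had an island. A background common to libraries was not tested there.

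The places left out were 533 regions, with 9.32% of the island reads of DKO CD8 and 9.76% of those of WT CD8. The one with the most reads was on chromosome 9, 2999801 to 3039400, where WT CD8 had 111889 reads at 2825 reads per kb and no other histone library had an island. On chromosome 11, 3016801 to 3100200, DKO CD8 had 26137 reads and WT CD8 16658, with islands in 11 of the 12 libraries. The other was the chromosome 8 domain given above. Of the 533, 276 were of DKO CD8 alone, 14 of WT CD8 alone and 243 shared.

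Regions of 1 library differed in how close they lay to shared domains. The median distance to the nearest shared region was 43.0 kb for DKO CD8 alone and 165 kb for WT CD8 alone. Within 5 kb of one lay 18.0% of the regions of DKO CD8 alone and 5.71% of those of WT CD8 alone, and beyond 100 kb 34.3% of DKO CD8 alone and 61.8% of WT CD8 alone.

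Chromosome X stood apart from the autosomes. It had 3.92 regions of DKO CD8 alone per Mb, just below the 3.93 to 8.15 over the 19 autosomes, and 12.2 regions of WT CD8 alone per Mb, above their range of 7.36 to 10.2. Shared regions numbered 1.24 per Mb on X and 2.22 to 6.19 on the autosomes. The median ratio at the 203 shared regions on X was -0.73, outside the autosomal range of -0.27 to 0.13, and 44.8% were at least 2-fold lower in DKO CD8, against 15.9% to 30.2% on the autosomes. Shared regions on X were also narrow, with a median of 3.8 kb against 5.0 to 6.8 kb. Within 2.2 to 4 kb the medians were -0.89 on X (66 regions) and -0.64 on the autosomes, and within 6.2 to 10 kb they were 0.36 on X (42 regions) and 0.26 on the autosomes. Within 10.2 to 20 kb they were 0.95 on X (14 regions) and 0.40 on the autosomes. On total island reads the shift of 0.91 makes the X median of all shared regions positive. Chromosome Y held 29 regions of WT CD8 alone, 0 of DKO CD8 alone and 1 shared region. The sex of the animals was not analysed here, and its part in the X and Y values was not tested.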

How the data were processed

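Chromatin immunoprecipitation and sequencing libraries of mouse thymocytes were taken as deposited. Tools named in the submitters' processing notes are SICER 1.1, MACS 1.4.2, FastQC and Bowtie2 2.2.5, without roles, and the build is mm9. The deposited island lists give whole-number read counts per island, not normalized, on a grid of 200 bp, with at least 800 bp between H3K27me3 islands and at least 15 reads in each. Each Tcf1 peak carries a score set by the authors, used only to describe that list. Groups came from sample titles. Per the labels, some samples were sequenced a second time, without saying which.

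Islands of DKO CD8 and WT CD8 were merged where they shared at least 1 bp. Log2 ratios of summed island reads were centred on the median of shared regions, and a 2-fold distance was counted. Shares have exact 95% Clopper-Pearson intervals, reads have Poisson ones, and ratios have binomial ones given the summed reads. A region without an island has an unknown number of reads, so no fold and no limit is given for it. Members, thresholds and lists were chosen with earlier results of these data known. The text names the 5 highest and 5 lowest ratios among shared regions that each library covered over at least 50% and that had 100 or more reads in the library higher after scaling. It also names the 5 widest shared regions, the 5 strongest of each library alone outside high-signal places, the 3 strongest high-signal places and the 5 strongest of DKO CD8 alone with a Tcf1 peak. The gene and promoter tables at hand are of another build, so planned gene lists were not used and no sequence is given. Python 3.11.15, numpy 2.4.6, pandas 2.3.3 and SciPy 1.17.1 were used, with matplotlib 3.10.9 for figures, and merging and overlaps were checked against bedtools 2.31.1.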

Additional observations from a re-analysis of the deposited data

How the results depend on the processing

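No paired analysis was possible because each group has 1 library per mark. Of the counts by class, keeping islands with at least 50 reads gave 7066 regions of DKO CD8 alone, 10912 of WT CD8 alone and 5175 shared. Leaving out regions with a WT CD8 active mark, an alternative chosen after seeing the data, gave 8117 of WT CD8 alone and 4589 shared. Equal covered length, a stricter shared length and leaving out high-signal places kept all 3 counts within 1.5 times.

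Counts of shared regions higher or lower in DKO CD8 were 4190 higher and 568 lower on total island reads, 297 higher when centred on wide regions, 1936 higher at 1.5-fold, 143 higher and 928 lower at 3-fold, 105 higher and 921 lower with at least 50% covered by each library, and 333 higher and 719 lower without a WT CD8 active mark, the last chosen after seeing the data. Of the 20 ratios of the 10 named shared regions under another centring, 12 moved beyond their counting interval and 8 did not. These regions were chosen for extreme ratios, so their signs say nothing about stability.

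With an overlap of 50% of the smaller feature, regions of DKO CD8 alone held DKO CD8 H3K27ac in 10.75%, WT CD8 H3K27ac in 10.33%, WT CD4 H3K27me3 in 43.96% and Tcf1 peaks in 1.675%. Regions of WT CD8 alone held DKO CD8 H3K27ac in 2.107% and WT CD4 H3K27me3 in 10.07%, and shared regions held DKO CD8 H3K27ac in 20.16%, WT CD8 H3K27ac in 33.63% and WT CD4 H3K27me3 in 83.64%. Among regions with at least 50 reads, those of DKO CD8 alone held DKO CD8 H3K27ac in 18.69%, WT CD8 H3K27ac in 15.11%, WT CD4 H3K27me3 in 73.87% and Tcf1 peaks in 3.056%. Those of WT CD8 alone held WT CD8 H3K27ac in 83.54%, WT CD4 H3K27me3 in 9.033% and Tcf1 peaks in 0.38%, and shared regions held DKO CD8 H3K27ac in 23.48% and WT CD4 H3K27me3 in 89.24%. The causes were not tested. Islands hold at least 15 reads, so weaker signal in the other library cannot be seen.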
